A study of Homo sapiens with 10 samples.

Results

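The poly(A) peaks of 9 genes of the p53 pathway were examined in IMR-32 cells, an established human neuroblastoma (NB) line. The genes were MDM2, MDM4, CDKN1A, GADD45A, SESN1, SESN2, TP53INP1, ZMAT3 and BBC3, and a peak was taken for a gene when its summit lay between the annotated start of the gene and 600 bp past its annotated 3′ end (GENCODE 44, GRCh38). This rule, which uses position and no measured value, found 75 of the 178837 peaks in the list. Every gene held at least 1 peak, with 18 in ZMAT3, 15 each in MDM2 and MDM4, 12 in SESN1, 5 in SESN2, 4 in BBC3, 3 in CDKN1A, 2 in TP53INP1 and 1 in GADD45A.

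p53 is a transcription factor that is kept low in unstressed cells by MDM2, a ubiquitin ligase, and is held in check at its targets by MDM4, a relative of MDM2. When DNA is damaged p53 accumulates and switches on genes that stop the cell cycle, support repair and antioxidant defence, or start apoptosis, and MDM2 is itself one of its targets, which closes a feedback loop. A transcript of any of these genes is completed by cleavage and polyadenylation. The signal for this is a hexamer, in most genes AATAAA or ATTAAA, that lies a short way upstream of the site where the RNA is cut, and use of a site inside a gene gives a shorter transcript with another 3′ UTR or with a truncated coding region.

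The peaks came from poly(A) 3′-seq, in which reads start at or next to the cleavage site of oligo(dT)-primed RNA. The 10 libraries were 4 of cells expressing shRNAs against CDK12 (shCDK12), 4 against CDK13 (shCDK13) and 2 of cells expressing shGFP as control, with 2 shRNAs per kinase and 2 libraries per shRNA, and all came from the same cell line. The libraries belonged to different processing batches. The authors downsampled them to a common size, merged their reads and called peaks once on the pool. The list therefore holds no value per library, condition or strand. It also still holds peaks of a kind that the study later removed as false positives. No effect of either kinase, no spread between replicates and no depth per library is given, and all values below are levels in the pooled cells.

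Of the pooled list, a peak is described by its pileup at the summit, which is the number of reads, extended to 100 bp and with duplicates removed, that overlap there. The pileup had a median of 9 and a maximum of 200 over the whole list. Because a start position is counted once, the pileup levels off at strongly used sites. The 95% intervals beside pileups are exact Poisson intervals and those beside shares of peaks are Wilson intervals, and both cover counting error only. The Poisson intervals take no account of the levelling off or of how widely start positions scatter. Whether they overlap therefore does not show which site was used more. The markers mostly fitted the labelled cell type. All 10 markers of NB and adrenergic neurons had a peak at an annotated 3′ end, against 68.7% of all protein-coding genes. Their highest pileups lay between 16 in ISL1 and 114 in PHOX2A. ISL1, DBH (17) and TH (21) were below the median of genes with such a peak, 23, and the other NB markers above it. A peak in these low genes says little on cell type. Of 6 markers of blood, liver, epithelial, fibroblast and endothelial cells only ALB (3) and COL3A1 (8) had such a peak.

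Peaks were called terminal when the summit lay in a window around an annotated transcript end, from 200 bp before it to 600 bp after it, exonic when it lay in another part of an exon, and intronic otherwise. Of the 75 peaks, 19 were terminal, 14 exonic and 42 intronic. Each of the 9 genes had a terminal peak, and the 4 genes GADD45A, SESN2, TP53INP1 and BBC3 had exactly 1. The side of a peak that is downstream on the strand of the gene, its 3′ edge, marks the cleavage site, or the most distal one where a peak is wide, and sequence was read from there.

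**Figure D1:**
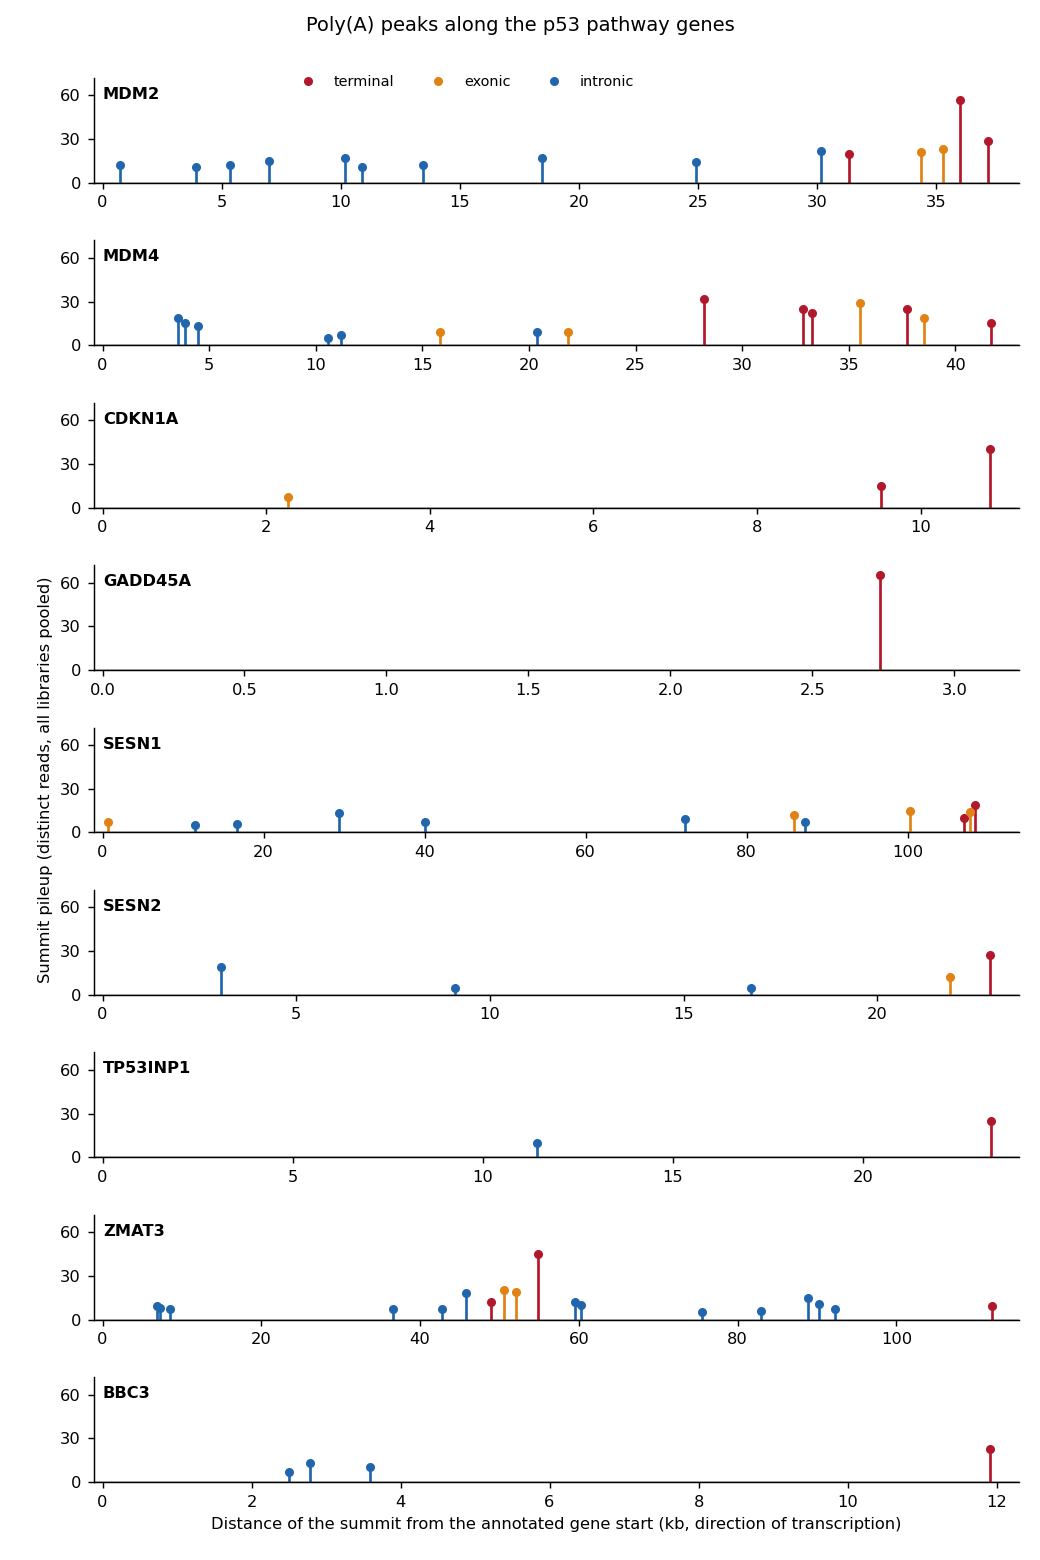
Position and height of the 75 poly(A) peaks, with 1 panel per gene. The x axis is the distance of the summit from the annotated gene start in kb in the direction of transcription, the y axis is the summit pileup in reads pooled over all libraries, and colours give the class of the peak. Bars near the right end stand for the ends of the genes, except in ZMAT3, where the bar of 45 lies about midway because an annotated transcript runs on past the canonical end.

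In 8 of the 9 genes a terminal peak ended within 200 bp of the end of the canonical transcript, the 1 transcript that the annotation puts forward for the gene. All 8 had a core signal between 10 and 40 bases upstream of the 3′ edge, AATAAA in 7 and ATTAAA in MDM4. The signal started 16 to 33 bases upstream, with a median of 25.5 bases, and the 10 genomic bases downstream of the edge held 0 to 4 A. In 6 of the 8 the edge lay within 20 bp of an annotated end. Over all genes 48.4% of terminal peaks had a core signal between 10 and 40 bases upstream, with canonical and other ends not separated. The sequences below, from GRCh38 and on the strand of the gene, show the signal (capitals) and the bases that follow it for 7 of the 8 peaks.
MDM2 end (chr12:68845412-68845441, plus strand): AATAAAaccgtaaagcaagcagatgggagg
MDM4 end (chr1:204558098-204558127, plus strand): ATTAAAtgtttttccttttgccattgtgtg
CDKN1A end (chr6:36687375-36687404, plus strand): AATAAAtgggcttttgggaaggatttcata
GADD45A end (chr1:67688308-67688337, plus strand): AATAAActggtatgaataattgcatcattt
SESN2 end (chr1:28282462-28282491, plus strand): AATAAAcgttcgctgaggttttgtttcata
ZMAT3 end (chr3:179017224-179017253, minus strand): AATAAAacggtttctgagtcttgtctgaaa
BBC3 end (chr19:47220817-47220846, minus strand): AATAAAatcagattggaacagtggatactc
SESN1 was the exception. Its canonical transcript ends 2131 bp past the most distal peak of the gene, and that peak ended 2 bp past the end of the shorter transcript SESN1-201, 24 bases after an AATAAA.
SESN1-201 end (chr6:108986435-108986464, minus strand): AATAAAgaagaatttttctccaattttatt

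MDM2, the ligase that marks p53 for degradation, lies on the plus strand of chromosome 12 (68808177 to 68845544, ENSG00000135679.27). It had 3 terminal, 2 exonic and 10 intronic peaks. The peak nearest the canonical end had a pileup of 29 (interval 19.4 to 41.6), and its edge lay 116 bp short of that end. The highest peak, with 57 (43.2 to 73.9), lay 1281 bp short of the canonical end in the 3′ UTR, 68 bp past the end of the transcript MDM2-214. The intervals of these 2 pileups did not overlap, but the pileup counts distinct start positions, so greater use of the proximal position is not shown. The highest peak was 222 bp wide, and sequence was read from its 3′ edge only. The signal of any site further upstream within it is therefore not known. It is shown because that edge had not the core signal but AATAGA, 1 of the 12 hexamers searched, 35 bases upstream, and 6 A among its 10 downstream bases.
MDM2 highest peak (chr12:68844228-68844257, plus strand): AATAGAaattatttgaatatcatatatttg
At 57, MDM2 stood above 97.1% of the 13761 protein-coding genes that had a terminal peak.

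Further upstream in the last exon of MDM2 there were 3 more peaks. A peak of 23 lay 2046 bp short of the canonical end with AATATA 23 bases upstream and 3 A downstream, and a peak of 21 lay 2733 bp short of it with no hexamer between 10 and 40 bases upstream. The third, of 20 and 482 bp wide, ended in the coding part of exon 11, downstream of 470 of the 497 codons. The 4 most distal peaks of MDM2 also lie within CPM, a carboxypeptidase gene on the other strand, and since the list has no strand, reads of MDM2 and CPM cannot be told apart there. The 10 intronic peaks of MDM2 had pileups from 11 to 22, and 7 of them had at least 7 A among the 10 downstream bases, which is called A-rich below, 4 of the 7 with exactly 7 A. The most 5′ peak, of 12, lay in intron 1 and 91 bp upstream of the start of the transcript MDM2-224, with 4 A downstream and no hexamer between 10 and 40 bases upstream. The highest intronic peak, of 22, lay in intron 10 with 5 A downstream and no hexamer between 10 and 40 bases upstream.

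MDM4, which binds p53 and blocks its transactivation domain, lies on the plus strand of chromosome 1 (204516379 to 204558120, ENSG00000198625.14). Its peak at the canonical end, with ATTAAA 19 bases upstream, reached only 15 (8.40 to 24.7). The 4 other terminal peaks, at ends of shorter annotated transcripts, had pileups of 32, 25, 22 and 25. The highest, of 32 (21.9 to 45.2), ended in coding exon 9, downstream of 271 of the 490 codons. Its interval overlapped that of the canonical end, so the order of these 2 is not shown. Its edge lay 7 bp before the end of exon 9 and 78 bp past the end of the transcript MDM4-212. No hexamer lay between 10 and 40 bases upstream, and 6 of the 10 downstream bases (capitals) were A, a stretch that crosses the boundary between the exon and the intron.
MDM4 exon 9 (chr1:204544663-204544692, plus strand): agggaaagtaagtgaCAAAAAGGTAtgttg
MDM4 stood above 72.8% of genes by its highest terminal peak, and the sum over its 5 terminal peaks, 119, was larger than that of MDM2, 106. In both genes only the terminal peak nearest the canonical end had a core signal between 10 and 40 bases upstream. A peak of 25 in the MDM4 sum, in coding exon 11, had 7 A among its 10 downstream bases. The part of internal priming in these sums was not tested.

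MDM4 also held most of the peaks in coding sequence. Of the 7 peaks in coding exons of the 9 genes, 5 were in MDM4, 1 in MDM2 and 1 in SESN1, with pileups from 9 to 32. Those in MDM4 exons 5 and 7 had 9 reads each and 7 A downstream, and the summits of 2 more, of 25 and 22, lay in the coding part of exon 11. Of all 7, 4 were A-rich and 0 had a core signal between 10 and 40 bases upstream. For coding peaks no share over all genes is given. Over the exonic peaks of all genes these shares were 31.5% and 24.1%. In the 3′ UTR of MDM4, a peak of 29 was followed by an uninterrupted run of 10 A, and a peak of 19 by 4 A with AGTAAA 28 bases upstream.

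The highest pileup was found in a gene of cell cycle arrest and repair. GADD45A, a stress sensor that binds CDK1 and PCNA, had a single peak of 65 (50.2 to 82.8), higher than 98.7% of genes. The peak was 486 bp wide and ended exactly at the annotated end of the gene (chromosome 1, plus strand, 67685201 to 67688334, ENSG00000116717.13), with its summit 395 bp upstream. The 65 is thus the pileup at the summit and not at the edge, from which the signal was read. CDKN1A, the CDK inhibitor p21, had 40 (28.6 to 54.5) at its end, above 85.6% of genes. This peak ran 63 bp past the canonical end on the plus strand of chromosome 6 (36676460 to 36687337, ENSG00000124762.14). A peak of 15 (8.40 to 24.7) lay 1273 bp upstream in the 3′ UTR, 135 bp past the end of CDKN1A-202, with 1 A downstream and no hexamer, and its interval did not overlap that of the distal peak. The remaining CDKN1A peak, of 7, lay in the 5′ UTR, 4 bp from the start of the transcript CDKN1A-207, and 68.0% of its bases were G or C. Neither CDKN1A nor GADD45A had an intronic peak, which for introns of 6.69 and 0.609 kb allows up to 5.51 and 60.6 peaks per 10 kb, so that no lack of intronic peaks is shown in these short genes.

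The sestrins, stress proteins that restrain mTORC1 signalling, differed in layout. SESN2 (chromosome 1, plus strand, 28259518 to 28282491, ENSG00000130766.5) had a terminal peak of 27 (17.8 to 39.3), 4 bp past its annotated end. SESN1 (chromosome 6, minus strand, 108984309 to 109094846, ENSG00000080546.14) had the lowest highest-terminal pileup of the 9 genes, 19 (11.4 to 29.7), above 36.1% of genes. These intervals overlap. In SESN1 a second peak in the 3′ UTR, of 14, had an AATAAA 35 bases upstream and 4 A downstream, and a terminal peak of 10 in intron 9, 539 bp past the end of SESN1-206, a transcript annotated as a retained intron, was followed by 9 A. SESN1 also had a peak of 15 in coding exon 6 (8 A downstream), a peak of 12 only 28 bp past the start of SESN1-201 (7 A), and a peak of 7 in exon 1 (4 A, no hexamer between 10 and 40 bases upstream).

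ZMAT3, a zinc finger protein that binds RNA and is induced by p53, had the most peaks (3 terminal, 2 exonic and 13 intronic). It lies on the minus strand of chromosome 3 (178960121 to 179072215, ENSG00000172667.11). Its canonical transcript spans 54.6 kb of the 112 kb gene, and the peak at the end of that transcript was the highest, with 45 (32.8 to 60.2), above 90.7% of genes. In its 3′ UTR, peaks of 19, 20 and 12 lay 2824, 4332 and 5958 bp short of the end, and the interval of the highest of them (12.2 to 30.9) did not overlap that of the distal peak. Only the peak of 19 had a core signal between 10 and 40 bases upstream, AATAAA at 20, with 6 A downstream. The other 8 peaks that lay downstream of the canonical end, 4608 to 57084 bp past it, had pileups of 5 to 15. They count as ZMAT3 peaks because the transcript ZMAT3-204 extends there, and the most distal one, of 9, ended 18 bp short of its end, with AATAAA 36 bases upstream and 8 A downstream.

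TP53INP1, a cofactor that promotes p53 phosphorylation and autophagy (chromosome 8, minus strand, 94925972 to 94949378, ENSG00000164938.14), had a terminal peak of 25 (16.2 to 36.9) that ended 8 bp past the annotated end, above 55.2% of genes. Its AATAAA started 29 bases upstream. An intronic peak of 10 lay in intron 3, with 2 A downstream and no hexamer between 10 and 40 bases upstream. Both peaks also lie within NDUFAF6 on the other strand, and the reads of the 2 genes cannot be told apart there. BBC3, which encodes the BH3-only death protein PUMA, had a terminal peak of 23 (14.6 to 34.5) on the minus strand of chromosome 19 (47220822 to 47232766, ENSG00000105327.18), 5 bp past an annotated end, above 49.1% of genes.

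**Figure D2:**
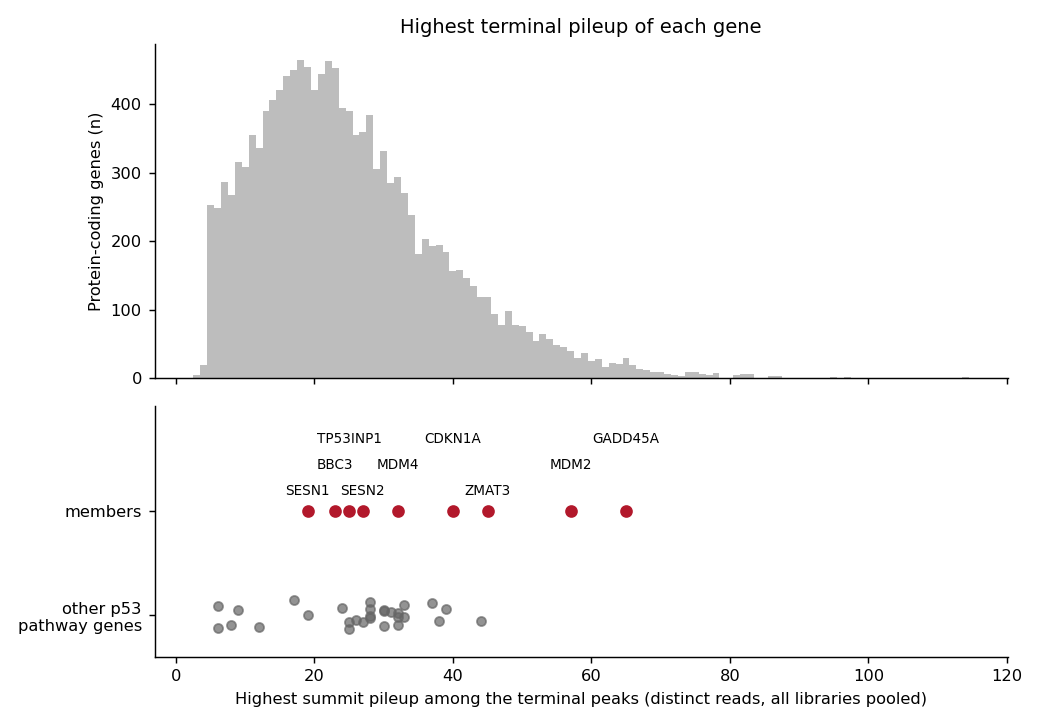
Highest pileup among the terminal peaks of a gene. The upper panel counts the 13761 protein-coding genes with a terminal peak at each pileup (x axis, reads pooled over all libraries), and the lower panel marks the 9 genes and the 29 other p53 pathway genes with a terminal peak (spread vertically for visibility). The 9 genes range from 19 in SESN1 to 65 in GADD45A, and 7 of them lie above the median gene, 23.

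By their highest terminal peak the genes thus ordered as GADD45A 65, MDM2 57, ZMAT3 45, CDKN1A 40, MDM4 32, SESN2 27, TP53INP1 25, BBC3 23 and SESN1 19. The pileup at a 3′ end counts reads that start there and does not scale with the length of the transcript. Each pair of neighbours in this order had overlapping intervals, while GADD45A and MDM2 did not overlap with any of the last 4 genes. The values of MDM2 and TP53INP1 come from peaks that also lie within CPM and NDUFAF6, whose reads cannot be told apart there. The median over the 9 genes was 32, against 23 over all protein-coding genes with a terminal peak and 28 over other genes of the pathway.

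Those other genes were 31 regulators and targets of p53, of which 29 (93.5%) had a terminal peak, against 68.7% of 20033 protein-coding genes. The list was chosen with earlier results of these data known, and that reference is not matched to it. The higher share is therefore not shown to be particular to the pathway. All 7 regulators had a terminal peak, with 38 in USP7, a deubiquitinase of MDM2 and p53, and 6 in CDKN2A, which encodes the MDM2 inhibitor ARF. Of 15 targets in arrest and repair, 14 had one, with a median of 29 and the highest value, 39, in RPS27L, and SFN had none. Of 9 death targets, 8 had one, with 44 in the death receptor gene TNFRSF10B, 37 in PMAIP1 (the BH3-only protein NOXA), 19 in BAX, the pore-forming effector, 6 in the receptor gene FAS and none in PERP. The 44 of TNFRSF10B was the highest of the other genes, and the intervals of MDM2, ZMAT3, CDKN1A and MDM4 include it.

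The intronic peaks made up 56.0% of the 75 (interval 44.7% to 66.7%), against 70.9% of the 162226 pairs of a peak and a protein-coding gene over the genome, and the terminal peaks 25.3% (16.9% to 36.2%) against 18.8%. Per length of intron, the genes held 1.36 intronic peaks per 10 kb (0.982 to 1.84) against 0.926 over all protein-coding genes. That reference takes in the introns of 6272 genes without a terminal peak, whereas all 9 genes had one. It is therefore not matched to them, and a higher value than 0.926 is not shown to be particular to these genes. MDM2 had 3.71 (1.78 to 6.82), BBC3 3.42 (0.706 to 10.0) and MDM4 2.19 (0.802 to 4.76), whereas SESN1, with introns of 100.8 kb, had 0.595 (0.218 to 1.295). The interval of MDM2 lay above the value of all genes and those of BBC3, MDM4 and SESN1 included it. These are descriptions of the genes chosen, with no test.

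Genomic A next to a peak matters because oligo(dT) can also prime on A within an RNA. Of the 42 intronic peaks, 23 were A-rich (54.8%, interval 39.9% to 68.8%), against 66.8% in all genes, and of the 14 exonic peaks 7 were (50%, 26.8% to 73.2%), against 31.5%. Of the 19 terminal peaks 4 were A-rich (21.1%), against 19.98%, and all 4 lay at ends other than the canonical one. The core signal started 10 to 40 bases upstream of 10 of 19 terminal peaks (52.6%), against 48.4% in all genes, and of 7 of 42 intronic ones (16.7%), against 13.8%. The terminal peaks at ends other than the canonical one had it in 2 of 11 cases. No share over all genes is given for this split. Away from the canonical ends by more than 200 bp, the 3′ UTRs held 13 peaks, of which 9 had fewer than 7 A and 3 of these the core signal, 2 in SESN1 and 1 in ZMAT3. A motif of the 3′ part of Alu repeats, CTGGGNNACA, was searched on the strand of the gene within 70 bases upstream of the edge after the sequences had been seen, and its last bases can also be the first of a hexamer that begins with A or CA. It was present at 10 of the 23 A-rich intronic peaks (43.5%, 25.6% to 63.2%), against 22.3% in all genes. Of the 19 others 1 had the motif (5.26%, 0.935% to 24.6%), against 1.76% in all genes. Over all classes the motif was held by 16.0% of the 75 peaks and by 11.99% in all genes. All 3 intronic peaks of SESN2 had it, including the highest, of 19, in intron 1, where the bases after the edge (capitals) were 10 A.
SESN2 intron 1 (chr1:28262619-28262648, plus strand): ctcaaaaaaaaaaaaAAAAAAAAAAccagg
MDM2 intron 8 (chr12:68833116-68833145, plus strand): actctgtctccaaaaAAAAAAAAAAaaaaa
ZMAT3 intron 5 (chr3:179026380-179026409, minus strand): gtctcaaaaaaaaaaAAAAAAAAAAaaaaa
All 3 sequences continue the A run beyond the edge of the peak, and their pileups were 19, 14 and 18. The part of internal priming in the pileups was not tested.

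**Figure D3:**
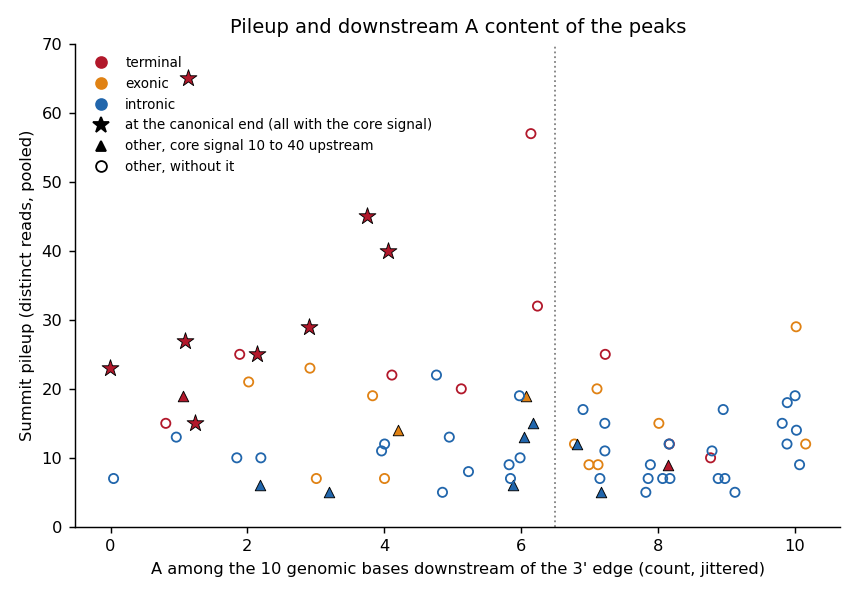
Summit pileup (y axis, reads pooled over all libraries) against the number of A among the 10 genomic bases downstream of the 3′ edge (x axis, jittered) for the 75 peaks. Stars are the 8 peaks at canonical ends, triangles other peaks with a core signal 10 to 40 bases upstream, open circles the rest, and the dotted line separates A-rich peaks. The stars hold 0 to 4 A, whereas the highest terminal peaks of MDM2 (57) and MDM4 (32) hold 6. Pileup is taken at the summit and A at the edge. In GADD45A (65) the summit lies 395 bp before the edge, so its star does not give the pileup of the site at the edge.

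The other 19 intronic peaks had fewer than 7 A downstream, and 9 of these had 1 of the 12 hexamers between 10 and 40 bases upstream. Over intronic peaks of any A content such a hexamer was present at 31.0%, against 29.9% in all genes. The 9 peaks lay in 4 of the genes, MDM2, MDM4, SESN1 and ZMAT3, with pileups of 5 to 19. In 5 of the 9 the hexamer was a core signal, and all 5 were in SESN1 or ZMAT3. They are shown because they had a core signal and fewer than 7 A downstream. The share of intronic peaks with a core signal was near that of all genes, so they are not shown to be poly(A) sites. The list has no strand, and read on the opposite strand 2 of the 19 were A-rich (10.5%, against 15.2% in all genes). These were the SESN1 peak of 6, with 7 A, and a ZMAT3 intron 2 peak of 9, with 9 A.
ZMAT3, pileup 6 (chr3:178989256-178989285, minus strand): ATTAAAtctcctttctttataaattatcca
ZMAT3, pileup 5 (chr3:178996666-178996695, minus strand): AATAAAactttccttttcaaacctatactg
ZMAT3, pileup 15 (chr3:178983359-178983388, minus strand): AATAAAaagaaaatgtaaaactgaaaaaaa
SESN1, pileup 13 (chr6:109065361-109065390, minus strand): AATAAAaagaaacaaatctctgaaaattga
SESN1, pileup 6 (chr6:109078098-109078127, minus strand): AATAAAtatacaaatttaaatagaaaagac
The first pair had 2 and 3 A downstream, with the signal 22 and 23 bases upstream, and lay 27960 and 20551 bp past the canonical end of ZMAT3. The other 3 had 6 A, the highest number that still passed, with the signal 14, 39 and 10 bases upstream. All 5 fell below the pileup at the end of their gene, 45 in ZMAT3 and 19 in SESN1, although the intervals of the SESN1 peaks of 13 (6.92 to 22.2) and 6 (2.20 to 13.1) both overlapped that of its end (11.4 to 29.7).

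The remaining 4 of the 9 had other hexamers. MDM4 intron 1 held the highest, of 19, with AAGAAA 13 bases upstream and 6 A downstream. MDM2 intron 4 held 1 of 11, with AAGAAA 30 bases upstream and 4 A, and ZMAT3 intron 2 held 2, of 8 and 9, with AAGAAA and AATACA 40 and 21 bases upstream and 5 and 6 A. The limit of 7 A sets what is counted here. The 3 peaks with exactly 7 A fell just outside, a peak of 5 in SESN1 intron 1, with AATAAA 23 bases upstream, and peaks of 12 and 11 in MDM2 intron 2, with ATTAAA 19 and AGTAAA 21 bases upstream.

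The 10 other intronic peaks had neither A-rich bases nor such a hexamer. Among them were all 3 intronic peaks of BBC3, which lay in intron 1 with pileups of 7, 13 and 10. The first and the second lay 935 and 1220 bp past the start of the canonical transcript. The share of G and C in these peaks was 63.5%, 53.1% and 51.6%, against a median of 41.3% over the intronic peaks of all genes, of which 1 in 10 exceeded 55.4%. The bases downstream of the edges (capitals) held 0, 1 and 2 A.
BBC3 intron 1, pileup 7 (chr19:47230184-47230213, minus strand): agtccccgcgcctgtTTGTGTGGGGttctg
BBC3 intron 1, pileup 13 (chr19:47229911-47229940, minus strand): ctctgtatctccgggGCATGTGTCTtttgc
BBC3 intron 1, pileup 10 (chr19:47229065-47229094, minus strand): gatgtgtggggatggATTGTGCCAGccagt
The absence of the 12 hexamers from these windows says nothing on the factors that bind there. The other 7 peaks of this kind were the intron 1 and intron 10 peaks of MDM2 and the intron 3 peak of TP53INP1 described above, peaks of 13 and 5 in introns 1 and 3 of MDM4, each with 5 A downstream, and peaks of 7 and 10 that lay 37433 and 5358 bp past the canonical end of ZMAT3, each with 6 A. The peak of 13 in MDM4 was the 1 intronic peak that held the Alu motif without being A-rich.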

How the data were processed

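Poly(A) 3′-seq (QuantSeq REV) libraries of IMR-32 cells were represented by 1 deposited peak list. The authors trimmed reads with BBMap, aligned them to GRCh38 with STAR 2.5.1b, merged the downsampled libraries and called peaks with MACS2 2.1.1. Their later filter removed peaks that lacked a hexamer within 100 bp upstream and had a genomic stretch of 25 A downstream, up to 3 mismatches allowed. Peaks of this kind are still in the list, for example in MDM2 intron 8. The 75 peaks are therefore not all sites that the study retained. The deposited columns are the fold, a ratio of pileup to local background at the summit, the p-value and the adjusted q-value of that pileup (each as −log10), and a display score that was not used. No column gives a sample. The pileup was recovered from the deposited fold and −log10 p-value, with a largest miss of 0.000168 in −log10 p.

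List and reference genome were of 1 build, with 0 chromosomes holding a peak beyond their end. Classes used all GENCODE 44 transcripts, and the same rule was applied to all 20033 protein-coding genes as background. The 12 hexamers of the study were searched within 100 bases upstream of the 3′ edge. Genes are named by a rule: all 9 members, with each terminal peak and each other peak that has a hexamer 10 to 40 bases upstream and fewer than 7 A of 10 downstream. The members and lists were chosen with earlier results of these data known. No test was made, since libraries were pooled. Steps were tested on simulated data, and all 4988 pileups, 400 hexamers, 400 A contents and 12 classes were recovered. The simulated pileups followed the same formula that was inverted, and the hexamers were planted in sequence of C and G only. These checks therefore cover the code and not the fit to the deposited data. Python 3.11.15, numpy 2.4.6, scipy 1.17.1, pandas 2.3.3, matplotlib 3.10.9 and samtools 1.23.1 were used. The value of 1 further gene of the list is not reported here.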

Additional observations from a re-analysis of the deposited data

How the results depend on the processing

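No paired analysis was possible because the deposited list pools all libraries, and for the same reason leaving out each replicate could not be done. Keeping only peaks with −log10 q of 20 or more left 8 peaks, of which 87.5% were terminal, 12.5% intronic and 87.5% had a hexamer within 100 bases, and the 1 intronic peak was A-rich (100%). Class, hexamer and A-rich shares over all genes are not given at this limit. With 1 transcript per gene 9.33% of peaks were terminal, GADD45A being lost because its summit lies 395 bp before its end. The hexamer share, 54.7% (56.3% in all genes), was 34.7% with AATAAA and ATTAAA only and 28.0% from the summit. The A-rich share of intronic peaks was 71.4% with at least 6 A, 4.76% for a stretch of 25 bases and 4.76% from the summit. On the opposite strand, an alternative chosen after seeing the data, the hexamer share was 32.0% and the A-rich share 7.14%. Intronic peaks per 10 kb were 0.973 for −log10 q of 5 or more (0.643 in all genes), 0.0324 for 20 or more (0.0252) and 0.616 with fewer than 7 A (0.308). The values in all genes again take in genes without a terminal peak. Summed terminal pileups were 106 in MDM2, 119 in MDM4, 55 in CDKN1A and 66 in ZMAT3. Class shares moved by less than their intervals with a window of 100 bp, the centre or 3′ edge, merging, or without the 6 peaks that also lie in another gene. Of the 31 other pathway genes, 29 kept a terminal peak when peaks needed −log10 q of 5 and 21 when they needed 20. Over all 20033 protein-coding genes these counts were 13339 and 6911. Depth per library is unknown.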

Other observations

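The rule for membership allowed summits up to 600 bp past a gene end, but no summit it took lay past the end. The most distal peak inside lay 29 bp (CDKN1A) to 2188 bp (SESN1) before the end of the gene by its summit. The first peak outside lay 781 bp past the end in ZMAT3, with a pileup of 11, 3414 bp past it in MDM4, with 9, and 41483 bp past it in SESN1, with 4. In ZMAT3 the most distal peak inside had only 9, so the limit decides there which distal peak counts.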
